A study of Caenorhabditis elegans with 12 samples.

Results

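Heat shock proteins, the chaperonin ring and J-domain proteins are the protein-folding genes described here across the *lin-54* arrays. The members were every gene whose symbol begins with *hsp*, *cct* or *dnj* followed by a number, 53 of the 17675 genes on the *C. elegans* array, measured on 77 of its 21541 probe sets. They are 11 small heat shock genes, 5 HSP70 genes, *hsp-60*, the 8 subunits of the chaperonin ring (*cct-1* to *cct-8*) and 28 *dnj* genes, and 20 of them have more than 1 probe set. LIN-54 is a DNA-binding subunit of DRM, a transcription factor complex with E2F/DP and pRB family proteins, and the arrays ask how gene expression changes when it is compromised.

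The 12 arrays fall into 4 groups of 3 biological replicates. *lin-54(n2990)* embryos carry a missense allele with partial loss of function and were set against wild-type N2 embryos, both from young adults cultured at 25 °C. *lin-54(n3423)* germlines carry a null deletion, from a strain kept over the balancer nT1 [qIS51], and were set against wild-type N2 germlines, both from animals cultured at 20 °C and dissected 24 hours after the L4 stage, from the mitotic tip through late pachytene. Both mutants are in the N2 background. Only germline RNA was linearly amplified, and embryos and germlines were labeled with different kits and normalized apart. Tissue, allele, temperature and labeling therefore cannot be told apart, and no test was made between tissues. The *lin-54* probe set averaged 8.40 ± 0.41 in *lin-54(n3423)* germlines and 10.57 ± 0.77 in wild-type germlines (log2, SD, n = 3 each), and its transcript was detected in 0 of 3 mutant germlines and 3 of 3 wild-type ones. In embryos, where the allele is a missense one, it was 0.42 higher in the mutant (SE 0.11). In germlines 4 of 7 germ cell markers were detected on all 6 arrays, against 1 of 5 sheath and somatic gonad, 1 of 5 intestine, 1 of 4 epidermis, 1 of 5 neuron, 0 of 5 sperm, 0 of 4 body wall muscle and 0 of 4 pharynx markers. The gonad marker detected throughout was *inx-8*, an innexin gene of the gonadal sheath, which was called lower in the mutant at 7.56, 7.09 and 6.97 in *lin-54(n3423)* germlines and 10.01, 9.59 and 10.02 in wild-type germlines (change -2.67, SE 0.21, adjusted p = 0.214). Its part in the germline values below was not tested. Detected probe sets numbered 10826 to 11818 on the *lin-54(n2990)* embryo arrays and 11737 to 11985 on the wild-type embryo arrays, and 5954 to 8001 on the *lin-54(n3423)* germline arrays and 6347 to 8209 on the wild-type germline arrays.

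Molecular chaperones bind unfolded proteins and help them reach their native shape. HSP70 proteins do so in cycles of ATP hydrolysis that J-domain proteins stimulate, while the chaperonin ring, called TRiC or CCT, folds actin, tubulin and other substrates inside a closed chamber. Small heat shock proteins hold unfolding proteins in a soluble state, and some, the *hsp-16* genes above all, are nearly silent until heat or another stress acts through the heat shock factor HSF-1.

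All levels below are log2 values made with rma, in which a difference of 1 is a doubling, and each change is mutant minus wild-type with its standard error. A probe set was taken as detected, or present, where its deposited detection call said so. Levels of different probe sets are not comparable with each other. Calls followed the rule of the study's methods, a fold change of 1.5 or more together with an unadjusted p no higher than 0.01 in limma. Adjusted p values are limma's after Benjamini-Hochberg adjustment over all probe sets of the tissue. The number of arrays limits the precision, and the smallest p that exact permutation allows with 3 arrays on each side is 0.1.

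Most chaperone genes were detected in embryos. Of the 77 probe sets, 70 were present on all 3 *lin-54(n2990)* arrays and 71 on all 3 wild-type arrays, against 46.4% and 50.6% of all probe sets. *hsp-12.6* and *dnj-24* were present on 0 of the 6 embryo arrays, as were 41.0% of all probe sets on the mutant arrays and 40.4% on the wild-type arrays. In dissected germlines 47 probe sets were present on all 3 *lin-54(n3423)* arrays and 45 on all 3 wild-type arrays, against 24.4% and 25.8% of all probe sets, and 13 were present on none of the mutant arrays and 13 on none of the wild-type arrays (59.9% and 58.1% of all probe sets). The small heat shock genes *hsp-12.1*, *hsp-12.2*, *hsp-12.3* and *hsp-12.6* were among those not present on any germline array. *dnj-7*, an X-linked gene for a J-domain protein of the endoplasmic reticulum, was present on all 6 embryo arrays and on none of the germline arrays.

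In *lin-54(n2990)* embryos 4 chaperone genes were called higher than in wild-type, and all 4 encode J-domain proteins: *dnj-26*, *dnj-15*, *dnj-30* and *dnj-28*. These were 4 of 53 genes, or 7.55%, where 3.83% of all genes on the array were called higher. With the replicate number as a block 4 of the 53 were called higher as well, where 4.85% of all genes were. Called lower were 0 of the 53, where 1.69% of all genes were. At an adjusted p of at most 0.05 none of the 53 passed in either direction, against 0.289% of all genes higher and 0.0170% lower. At an unadjusted p of at most 0.05, 11 of the 77 probe sets were higher, or 14.3% (12.5% of all probe sets), and 7 were lower, or 9.09% (12.9%).

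*dnj-26*, on chromosome IV, changed most of the 53 genes. Its log2 level was 9.28, 9.67 and 8.31 on the *lin-54(n2990)* embryo arrays, against 6.43, 6.27 and 6.75 on the wild-type embryo arrays. The lowest mutant array lay well above the highest wild-type array, and the change was 2.60 (SE 0.35, adjusted p = 0.07), a fold of 6.07. *dnj-15*, also on chromosome IV, had 9.58, 9.59 and 9.15 in the mutant embryos and 8.62, 8.68 and 8.59 in the wild-type embryos. The wild-type arrays lay within 0.09 of each other and below every mutant array, and the change was 0.81 (SE 0.14, adjusted p = 0.0803).

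*dnj-30*, on chromosome I, had 10.55, 10.65 and 10.16 in *lin-54(n2990)* embryos and 9.74, 9.69 and 9.67 in wild-type embryos, again without overlap, with a change of 0.75 (SE 0.14, adjusted p = 0.0945). *dnj-28*, also on chromosome I, was dim, at 5.95, 6.14 and 5.51 in the mutant embryos and 5.11, 5.29 and 5.18 in the wild-type embryos. Mutant embryos gave a detection call 3 times of 3 and wild-type embryos 1 time of 3, and its change was 0.68 (SE 0.17, adjusted p = 0.117). In each of the 4 genes mutant replicate 3 was the lowest of the mutant arrays. *dnj-26*, *dnj-15* and *dnj-30* passed the call in all 6 fits that left out 1 array, while *dnj-28* passed only in the fit without mutant replicate 3, its change lying between 0.54 and 0.85.

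**Figure D1:**
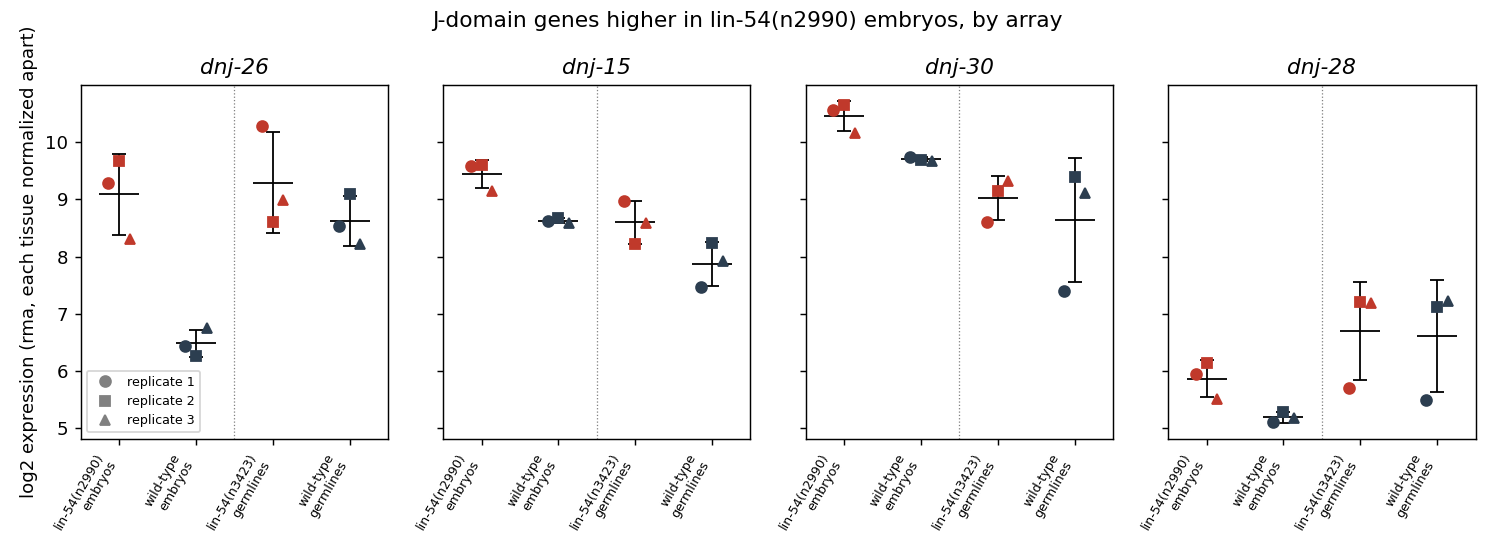
Log2 expression of the 4 J-domain genes called higher in *lin-54(n2990)* embryos, for each array (points, with the replicate number as shape), with the mean and SD of each group (bars); embryos and germlines were normalized apart, so only mutant and wild-type of 1 tissue can be set against each other. The *dnj-26* points of mutant embryos lie between 8.31 and 9.67 and those of wild-type embryos between 6.27 and 6.75, while in germlines the genotypes overlap for all 4 genes, though only just for *dnj-15*.

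Higher means were not limited to these 4 genes among the J-domain proteins. Of the 43 *dnj* probe sets, 36 had a higher mean in *lin-54(n2990)* embryos, with a median change of 0.22, where 50.7% of all probe sets had a higher mean and the median of all was 0.00. Over all 77 chaperone probe sets the means of 50, or 64.9%, were higher. The mutant and wild-type arrays did not overlap for 16 of the 77 with the mutant higher, or 20.8%, and for 13 with the mutant lower, or 16.9%. The shares of all probe sets without overlap were 15.2% higher and 17.6% lower. Some genes enter these counts with several probe sets, which are not independent of each other. Whether the share of 20.8% differs from 15.2% was not tested, so no excess is read from it.

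The largest uncalled higher changes without overlap were those of *dnj-18*, *dnj-22* and *dnj-11*. *dnj-18* had 9.48, 9.69 and 8.57 in the mutant embryos and 8.03, 8.42 and 8.48 in the wild-type embryos, a change of 0.94 (SE 0.31), and it was called in the fit without mutant replicate 3. *dnj-22* changed by 0.77 (SE 0.22) and was called in the fit without wild-type replicate 3. *dnj-11*, whose yeast counterpart zuotin works at the ribosome, had 10.51, 10.86 and 10.28 in the mutant embryos and 10.27, 9.48 and 10.11 in the wild-type embryos, with mutant replicate 3 within 0.02 of wild-type replicate 1.

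Other J-domain genes changed less. *dnj-12* and *dnj-19*, the cytosolic partners of HSP70 of the DNAJA type, had changes of 0.25 (SE 0.12) on the 1 probe set of *dnj-12* and of 0.05 to 0.21 on the 3 of *dnj-19*. *dnj-29*, the Sec63 homolog of the endoplasmic reticulum, had changes of 0.02 and -0.16, and *dnj-27*, of the same compartment, 0.14 and 0.12. *dnj-21*, a subunit of the mitochondrial protein import motor, changed by 0.32 (SE 0.13) and *dnj-10*, a mitochondrial J-domain protein, by 0.26 and 0.52 on its probe sets. *dnj-25*, the worm auxilin that uncoats clathrin, and *dnj-8* were on the lower side, with changes of -0.29 and -0.21 and of -0.33, -0.26 and -0.18. None of these was called.

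The mean level of germ cell markers was also higher in the mutant embryos. The 7 germ cell markers (*glh-1*, *pgl-1*, *gld-1*, *nos-3*, *him-3*, *htp-3* and *rec-8*), all on the array and 6 of them detected on all 6 embryo arrays, had a mean level of 9.57, 9.90 and 9.09 on the *lin-54(n2990)* embryo arrays and 8.60, 8.997 and 8.68 on the wild-type embryo arrays, with 1 of 7 called higher, or 3 when the replicate block was added. The 5 oocyte and maternal markers averaged 11.28, 11.81 and 10.51 on the mutant and 10.09, 10.84 and 10.34 on the wild-type arrays, with 0 of 5 called, or 2 higher with the block. Not every germ cell marker was higher, as *nos-3* changed by 0.07 (SE 0.14) and *rec-8* by 0.22 (SE 0.11), both with overlap. Mutant replicate 3 was the lowest mutant array by the means of both lists, as it was for the 4 called *dnj* genes. Among the wild-type arrays, replicate 2 had the highest mean in both lists and the highest *dnj-15* and *dnj-28*, but the lowest *dnj-26*. In bulk RNA fewer cells of a type and less RNA per cell cannot be told apart, and the part of these markers in the J-domain values was not tested.

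The chaperonin ring and the constitutive HSP70 and HSP60 genes of *lin-54(n2990)* embryos stayed close to wild-type. The 15 probe sets of *cct-1* to *cct-8* changed by between -0.18 and 0.21, with standard errors of 0.065 to 0.116, and 0 of 15 were called. Their 95% intervals all lay between -0.40 and 0.46, so that a change of 1.5-fold in either direction lay outside each of them. The largest of these changes was that of *cct-5*, with 10.83, 11.10 and 11.05 in the mutant embryos and 10.89, 10.70 and 10.77 in the wild-type embryos on 1 of its probe sets, and these arrays overlapped. The most negative was that of *cct-6*, at 10.68, 10.89 and 10.86 in the mutant embryos and 11.05, 10.99 and 10.94 in the wild-type embryos, without overlap.

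*hsp-1*, the constitutive cytosolic HSP70, had 12.84, 12.76 and 12.79 in *lin-54(n2990)* embryos and 13.11, 12.77 and 12.70 in wild-type embryos, a change of -0.06 (SE 0.12). *hsp-3* and *hsp-4*, the BiP chaperones of the endoplasmic reticulum, changed by -0.09 (SE 0.10) and 0.21 (SE 0.11). The mitochondrial HSP70 gene *hsp-6* changed by -0.05 and -0.16 on its probe sets. *hsp-60*, the mitochondrial chaperonin, was lower without overlap on both of its probe sets, at 10.46, 10.53 and 10.42 in the mutant embryos and 10.78, 10.58 and 10.75 in the wild-type embryos on 1 of them. These changes of -0.23 and -0.28 were small, and neither was called (adjusted p = 0.173 and adjusted p = 0.137).

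**Figure D2:**
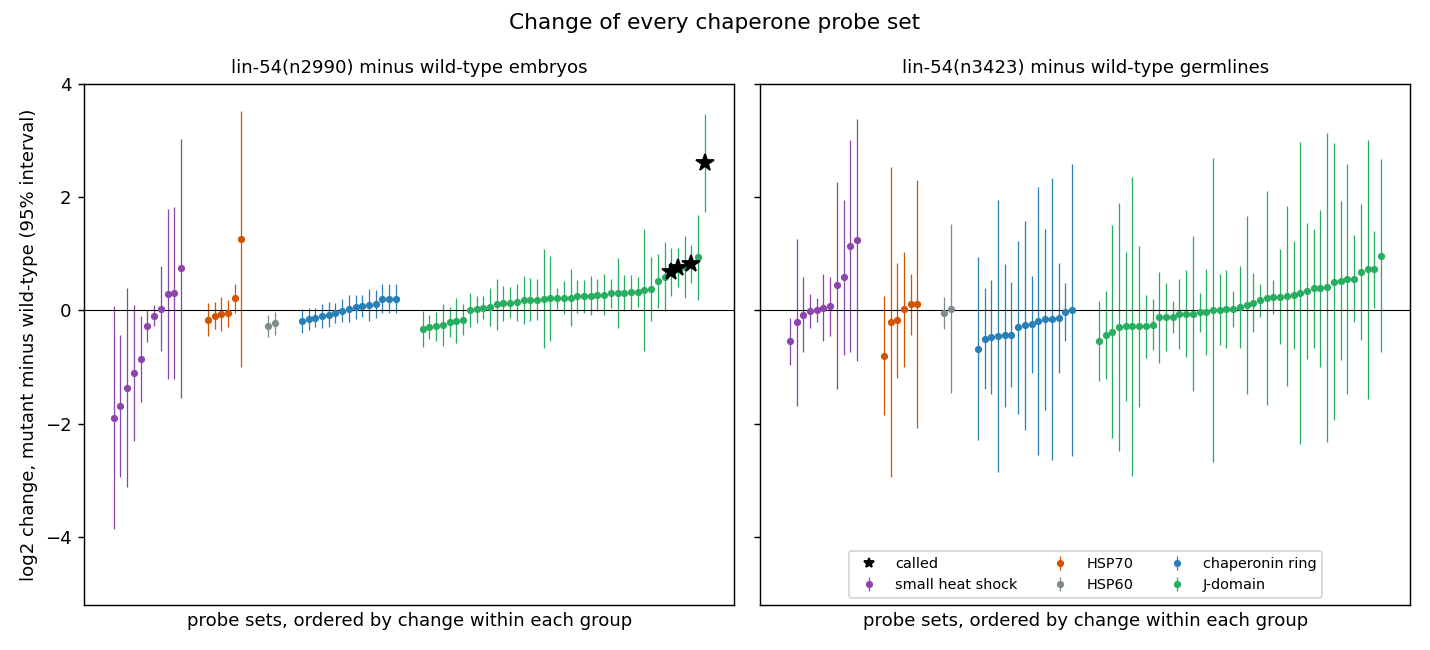
Log2 change, mutant minus wild-type, of each of the 77 chaperone probe sets with its 95% interval, ordered within each group of genes, in embryos (left) and germlines (right); stars mark called probe sets. In embryos the 15 chaperonin ring probe sets stay between -0.18 and 0.21 and the small heat shock genes reach -1.89, while in germlines the intervals are wide and none is called.

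The small heat shock genes are described here as a heat-inducible set and a set that is less so. This division is background knowledge, since no arrays of 1 tissue compared temperatures. *hsp-16.1*, *hsp-16.2*, *hsp-16.41* and *hsp-16.48* lie in divergently transcribed pairs on chromosome V. A further copy, F08H9.3 (*hsp-16.20*), is not under an *hsp* symbol on the array and is given with the other folding genes below. The genes of the pairs varied between arrays of 1 genotype more than between genotypes. *hsp-16.2* had 12.95, 10.56 and 13.18 in *lin-54(n2990)* embryos and 12.89, 11.39 and 10.18 in wild-type embryos. The high arrays were mutant replicates 1 and 3 and wild-type replicate 1, and the genotypes overlapped over nearly their whole range.

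*hsp-16.1* (13.13, 11.60 and 13.46 in the mutant and 13.33, 12.34 and 11.61 in the wild-type embryos) and *hsp-16.41* (12.204, 10.55 and 12.43 in the mutant and 12.29, 11.34 and 10.69 in the wild-type embryos) had the same high arrays. *hsp-70*, an inducible HSP70 gene on chromosome I, had 8.57, 6.07 and 9.10 in the mutant embryos and 7.93, 6.13 and 5.89 in the wild-type embryos. It was high on these 3 arrays too. The SD within genotypes was 1.40 for *hsp-16.2* and 1.39 for *hsp-70*, each at the 99.8th percentile of all probe sets. *hsp-16.48* had the same order in the mutant but a narrower spread, with 12.56, 11.92 and 13.08 in the mutant embryos and 12.81, 12.33 and 12.34 in the wild-type embryos.

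Changes between genotypes of these genes were 0.31 (SE 0.62) for *hsp-16.1*, 0.74 (SE 0.94) for *hsp-16.2*, 0.29 (SE 0.62) for *hsp-16.41*, 0.03 (SE 0.31) for *hsp-16.48* and 1.26 (SE 0.92) for *hsp-70*. None was called, and with 95% intervals as wide as -0.99 to 3.52 for *hsp-70* a change of 2-fold was not detectable for any of them but *hsp-16.48*. *dnj-13*, a J-domain partner of HSP70 of the DNAJB type, had the same high arrays, at 12.17, 11.34 and 12.45 in the mutant embryos and 12.28, 11.73 and 11.33 in the wild-type embryos. The probe sets of *hsp-16.1* and *hsp-16.48* are of the kinds that can hybridize to several transcripts, and the neighboring copies *hsp-16.11* and *hsp-16.49* have no symbol of their own on the array, so signal from near-identical copies cannot be separated there.

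Of the 7 small heat shock genes outside the *hsp-16* clusters, 5 had the lowest changes of the 53 genes in embryos. The other two, *hsp-17* and *hsp-12.6*, changed by -0.27 (SE 0.11, with overlap) and -0.09 (SE 0.08). *hsp-12.2*, on chromosome III, had 10.53, 8.11 and 11.35 in *lin-54(n2990)* embryos and 11.75, 12.25 and 11.66 in wild-type embryos, a change of -1.89 (SE 0.81). *hsp-12.3*, on chromosome IV, had 7.73, 6.99 and 8.78 in the mutant and 8.94, 9.48 and 10.15 in the wild-type embryos, a change of -1.69 (SE 0.51, adjusted p = 0.139). *hsp-12.1*, on chromosome I, had 11.39, 9.08 and 11.91 in the mutant and 12.06, 12.004 and 12.40 in the wild-type embryos, a change of -1.36 (SE 0.72). In all 3 genes the genotypes did not overlap and mutant replicate 2 was the lowest array.

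*hsp-25*, whose product is found in body wall muscle, had 10.10, 8.57 and 10.50 in *lin-54(n2990)* embryos and 10.72, 11.04 and 10.72 in wild-type embryos, a change of -1.10 (SE 0.49). *hsp-43* had 7.10, 6.25 and 7.49 in the mutant and 7.74, 7.97 and 7.72 in the wild-type embryos, a change of -0.86 (SE 0.31). Both are X-linked, and for both the genotypes did not overlap and mutant replicate 2 was again lowest. None of the 5 genes was called. With the replicate number as a block *hsp-12.3* was called lower (adjusted p = 0.0629), 1 of 53 genes or 1.89%, where that fit called 3.83% of all genes lower. *hsp-12.3* and *hsp-43* were called in the fit without mutant replicate 3. Without mutant replicate 2 the changes were -0.51 for *hsp-12.1*, -0.95 for *hsp-12.2*, -1.27 for *hsp-12.3*, -0.53 for *hsp-25* and -0.51 for *hsp-43*.

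Mutant replicate 2 was at least 1 lower than the mean of the other mutant embryo arrays for 10 of the 77 chaperone probe sets, or 13.0%, against 4.76% of all probe sets. Mean levels of marker lists of differentiated somatic tissues were low on the same array. These means were taken over probe sets, so a gene with several probe sets counted more. Not every marker was low there. On the *lin-54(n2990)* embryo arrays *hlh-1* of muscle had 8.21, 8.41 and 7.98, and *elt-1* of epidermis had 10.98, 11.33 and 11.14. Mutant replicate 2 was also the highest mutant array for *unc-119* of neurons and *pha-4* of pharynx. The body wall muscle markers, with 4 of 5 on the array and 2 of these detected on all 6 embryo arrays, averaged 8.25, 7.38 and 8.50 on the *lin-54(n2990)* arrays and 9.02, 8.63 and 9.05 on the wild-type arrays. The epidermis markers, with 4 of 5 on the array, averaged 10.10, 9.33 and 10.23 on the mutant and 10.64, 10.30 and 10.44 on the wild-type arrays. Markers of neurons and pharynx lay between 8.89 and 9.55 and between 8.29 and 8.89 on the mutant arrays, and between 9.67 and 9.88 and between 9.10 and 9.299 on the wild-type arrays. None of these lists had a marker listed as present on 0 of the 6 arrays, and none of their genes was called, though the fit with the replicate block called 1 epidermis, 2 neuron and 1 pharynx marker lower. The intestine markers overlapped, at 8.51 to 8.74 on the mutant and 8.65 to 8.82 on the wild-type arrays. The part of tissue or stage makeup in the values of the small heat shock genes was not tested.

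**Figure D3:**
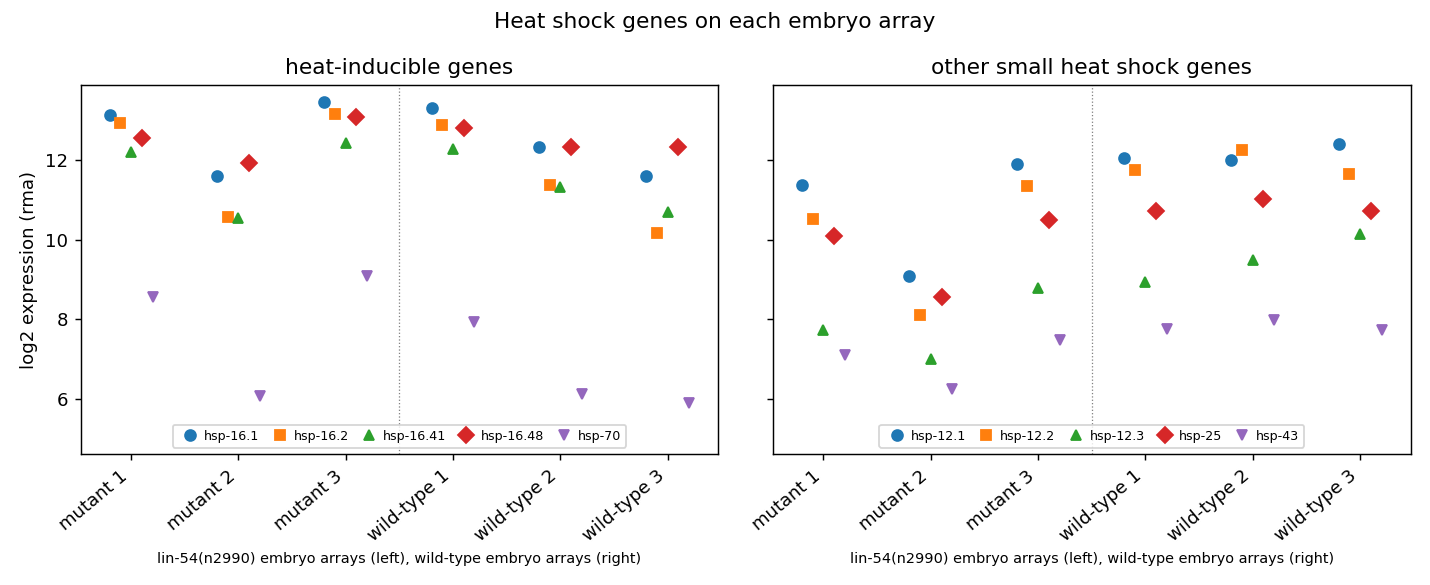
Log2 expression of heat-inducible genes (left) and 5 other small heat shock genes (right) on each embryo array, *lin-54(n2990)* arrays to the left of the dotted line and wild-type arrays to the right. The inducible genes are high on mutant replicates 1 and 3 and wild-type replicate 1, while the 5 genes on the right are lowest on mutant replicate 2.

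None of the 53 chaperone genes passed the call in *lin-54(n3423)* germlines, with 0 higher and 0 lower than in wild-type germlines, where 0.0849% of all genes were called higher and 0.419% lower by limma. At an unadjusted p of at most 0.05, 1 of 77 probe sets was higher and 1 lower, against 0.831% and 1.67% of all probe sets. These were *dnj-15* and *hsp-12.2*. The genotypes did not overlap for 1 of 77 probe sets with the mutant higher (4.02% of all probe sets) and for 2 with the mutant lower (3.15%). The means of 38 of the 77, or 49.4%, were higher in the mutant, where 56.6% of all probe sets were.

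Many chaperone genes were low on the first germline array of each genotype. In both genotypes replicate 1 was at least 1 lower than the mean of replicates 2 and 3 for 23 of the 77 probe sets, or 29.9%, against 7.67% of all probe sets. Among probe sets detected on all 4 arrays numbered 2 or 3 the counts were 22 of 56 chaperone probe sets, or 39.3%, against 24.6%. This filter used detection on the arrays that served as the reference, so it favors a low replicate 1 in both shares. *hsp-1* had 8.58, 10.37 and 10.79 in *lin-54(n3423)* germlines and 8.21, 10.50 and 10.70 in wild-type germlines, with both first arrays about 2 below the others. The mean of the germ cell markers was low on the same arrays, at 8.96, 9.98 and 10.19 in the mutant and 8.97, 9.99 and 9.98 in the wild-type germlines. So was that of the oocyte and maternal markers, at 9.51, 11.16 and 11.003 in the mutant and 9.65, 11.18 and 11.36 in the wild-type germlines. Not every germ cell marker was low there. On 1 probe set *him-3* had 11.47, 10.80 and 11.05 in the mutant and 11.23, 11.31 and 11.09 in the wild-type germlines. *nos-3* had 7.003, 7.58 and 7.87 in the mutant and 7.78, 7.30 and 7.09 in the wild-type germlines.

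The chaperonin ring genes had the same low arrays. The median offset of replicate 1 over their 15 probe sets was -1.80 in *lin-54(n3423)* germlines and -1.02 in wild-type germlines, and 7 of 15 were at least 1 lower in both. *cct-4* had 9.25, 11.64 and 11.92 in the mutant and 9.14, 11.91 and 11.75 in the wild-type germlines on 1 of its probe sets. Probe sets of 1 gene differed in this. For *cct-1*, 1 probe set had 10.38, 11.47 and 11.59 in the mutant and 11.37, 11.91 and 11.64 in the wild-type germlines, and another had 8.27, 10.80 and 10.97 in the mutant and 8.97, 11.16 and 11.27 in the wild-type germlines. Not all chaperone genes had this offset, since *dnj-21* was at least 1 higher on both arrays numbered 1. Of the 11 small heat shock probe sets 0 had it in both genotypes. Among them *hsp-12.1*, *hsp-12.2*, *hsp-12.3* and *hsp-12.6* were present on no germline array, while *hsp-16.1* and *hsp-16.48* were present on all arrays of both genotypes. The part of detection in this was not tested.

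**Figure D4:**
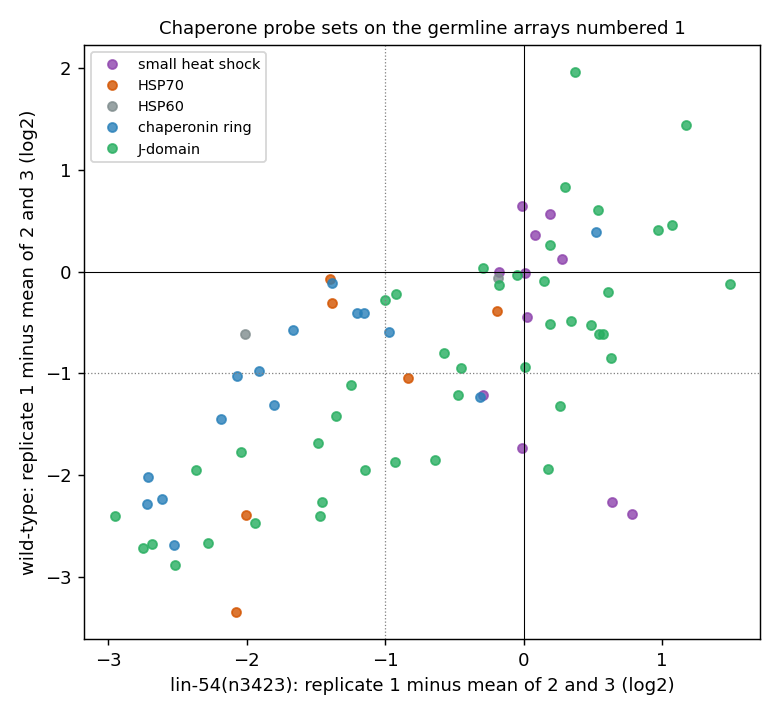
Difference between replicate 1 and the mean of replicates 2 and 3 for each of the 77 chaperone probe sets, in *lin-54(n3423)* germlines (horizontal axis, log2) and wild-type germlines (vertical axis, log2), colored by gene group; dotted lines mark -1. The lower left corner holds the 23 probe sets that were at least 1 lower on both arrays, 7 of them of the chaperonin ring.

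The chaperonin ring probe sets changed by between -0.68 and 0.01 in germlines, 14 of 15 with a lower mean in the mutant, with standard errors of 0.21 to 1.04. None was called, and with 95% intervals that reached -2.85 and 2.57 a change of over 2-fold was not detectable for most. *hsp-1* changed by 0.11 (SE 0.88) and *hsp-6* by 0.02 and -0.18 on its probe sets. *hsp-60* changed by 0.03 (SE 0.60) and -0.04 (SE 0.11).

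Each BiP gene was called lower in *lin-54(n3423)* germlines only in fits that set the arrays numbered 1 apart or paired the numbers. No fit called both. *hsp-3*, on the X chromosome, had 5.43, 6.30 and 6.23 in the mutant and 6.10, 6.77 and 7.51 in the wild-type germlines, detected on 0 of 3 and 2 of 3 arrays. The groups overlapped, but each mutant array was below the wild-type array of its number, and the change was -0.80 (SE 0.42). With the replicate number as a block *hsp-3* was called lower (adjusted p = 0.506), 1 of 53 genes or 1.89%, where that fit called 1.14% of all genes lower. *hsp-4* had 7.61, 9.77 and 9.60 in the mutant and 6.97, 10.24 and 10.40 in the wild-type germlines, a change of -0.21 (SE 1.10), and was not called with the block.

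With the arrays numbered 1 of both genotypes left out, a setting chosen after the values were seen, 3 of the 53 genes were called lower, or 5.66%, where 1.32% of all genes were. *hsp-4* then changed by -0.63 (SE 0.11, adjusted p = 0.256), while *hsp-3*, with a change of -0.87 (SE 0.26), was not called. *dnj-13* changed by -0.61 and -0.76 on its probe sets, at 10.96 and 10.80 in the mutant and 11.60 and 11.38 in the wild-type germlines on 1 of them. *dnj-19* changed by -0.60 and -0.64 on the 2 of its 3 probe sets that were called. With all arrays kept, mutant replicate 1 of *dnj-13* was 11.36 and wild-type replicate 1 was 10.97, which reversed the order of the other arrays.

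The *hsp-16* genes varied widely between germline arrays. *hsp-16.41* had 7.73, 7.69 and 6.19 in *lin-54(n3423)* germlines and 4.37, 6.07 and 7.44 in wild-type germlines, a change of 1.25 (SE 0.86). *hsp-16.48* had 8.93, 8.86 and 7.73 in the mutant and 5.87, 7.64 and 8.63 in the wild-type germlines, a change of 1.13 (SE 0.75). In both, mutant replicate 3 and wild-type replicate 1 were the lowest of their genotype and wild-type replicate 3 the highest wild-type array. Some markers of other cells shared parts of this pattern, though with wild-type replicate 2 as the lowest wild-type array. The 5 sperm markers, of which 3 were present on 0 of the 6 arrays, averaged 7.95, 7.73 and 7.001 in the mutant and 7.14, 6.89 and 7.31 in the wild-type germlines, and *msp-19* among them had 9.46, 9.67 and 7.71 in the mutant and 7.68, 7.50 and 8.87 in the wild-type germlines. The 4 body wall muscle markers, of which 2 were present on 0 arrays, averaged 6.09, 6.23 and 5.84 in the mutant and 6.21, 5.86 and 6.33 in the wild-type germlines, and 1 probe set of *unc-15* had 5.42, 6.66 and 4.41 in the mutant and 5.94, 4.80 and 7.28 in the wild-type germlines. Other members of these lists did not share it. *fer-1* of the sperm list had 6.38, 6.29 and 6.40 in the mutant and 6.50, 6.42 and 6.21 in the wild-type germlines. Another probe set of *unc-15* had 7.11, 6.94 and 7.09 in the mutant and 7.30, 6.90 and 7.26 in the wild-type germlines. The part of these markers in the *hsp-16* values was not tested. *hsp-16.1* and *hsp-16.2* changed by 0.44 (SE 0.74) and 0.58 (SE 0.55), also with overlap, and *hsp-70* was detected on 1 of 3 arrays of each genotype.

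Of the genes called in embryos, *dnj-15* had 8.98, 8.22 and 8.59 in *lin-54(n3423)* germlines and 7.46, 8.23 and 7.92 in wild-type germlines, a change of 0.73 (SE 0.27). Mutant replicate 2 lay just under wild-type replicate 2, so the groups overlapped. *dnj-26* had 10.29, 8.61 and 8.98 in the mutant and 8.54, 9.10 and 8.22 in the wild-type germlines, a change of 0.67 (SE 0.48). *dnj-30* and *dnj-28* changed by 0.39 (SE 0.56) and 0.09 (SE 0.63). Whether the embryo and germline changes differ was not tested.

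*dnj-27*, a J-domain protein of the endoplasmic reticulum, was the 1 gene without overlap on the higher side in germlines, with 4.87, 4.93 and 5.16 in the mutant and 4.66, 4.75 and 4.84 in the wild-type germlines on a probe set that was detected on none of them. On the lower side were *dnj-14*, which encodes cysteine string protein of synaptic vesicles, and *hsp-12.2*. *dnj-14* had 6.14, 6.08 and 5.60 in the mutant and 7.04, 6.19 and 6.22 in the wild-type germlines, a change of -0.54 (SE 0.29). *hsp-12.2* had 6.64, 6.55 and 6.56 in the mutant and 7.37, 6.81 and 7.22 in the wild-type germlines, a change of -0.55 (SE 0.17), and was detected on none of these arrays. It was the only probe set of the 77 whose genotypes did not overlap in the same direction in embryos and germlines.

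A list of 37 other genes, most of them of protein folding and its stress responses, gave a wider view, with 34 on the array. In *lin-54(n2990)* embryos 5 of the 34 were called higher and 1 lower, against 3.83% and 1.69% of all genes. *clpp-1*, the mitochondrial ClpP protease, had 11.40, 11.52 and 10.97 in the mutant and 9.395, 10.01 and 9.55 in the wild-type embryos, a change of 1.65 (SE 0.21, adjusted p = 0.0646) on 1 of its 2 probe sets. On the other the genotypes overlapped and the change was 0.45 (SE 0.19), which was not called. The others were *bag-1*, a nucleotide exchange factor of HSP70 (0.65, SE 0.09), *chn-1*, the CHIP ubiquitin ligase (0.65, SE 0.17), *pfd-6*, a prefoldin subunit (0.62, SE 0.12), and the small heat shock gene F08H9.3 (0.59, SE 0.13). F08H9.3 is *hsp-16.20*, an *hsp-16* copy that the symbol match did not take. *unc-45*, the myosin chaperone, was lower by a change of -0.70 (SE 0.18) on 1 probe set, while its other one, detected on 0 arrays, had an uncalled change of -0.40 (SE 0.10). Adding the replicate block removed the call of *chn-1*, whose other probe set had an uncalled change of 0.49 (SE 0.10). On the called probe sets adjusted p was 0.0716 for *bag-1*, 0.118 for *chn-1*, 0.0974 for *pfd-6*, 0.102 for F08H9.3 and 0.119 for *unc-45*. In fits that left out 1 array, *clpp-1* and *bag-1* kept the call in 6 of 6. *pfd-6* and F08H9.3 kept it in 3 of 6, *unc-45* in 2 and *chn-1* in 1. *daf-21*, which encodes HSP90, changed by 0.18 and 0.19, and *hsf-1* by -0.02 and 0.08.

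In *lin-54(n3423)* germlines 0 of the 34 genes were called higher and 1 lower, against 0.0849% and 0.419% of all genes. *pdi-2*, a protein disulfide isomerase of the endoplasmic reticulum, had 5.15, 5.67 and 4.85 in the mutant and 6.36, 6.58 and 6.76 in the wild-type germlines on 1 of its probe sets, a change of -1.34 (SE 0.24, adjusted p = 0.841). That probe set was called in each of the 6 fits that left out 1 array. The other *pdi-2* probe set changed by -0.74 (SE 0.29) and was not called with or without the replicate block. It was detected on 0 of 3 mutant and 2 of 3 wild-type germline arrays. With the replicate block *xbp-1*, a transcription factor of the unfolded protein response, was called lower as well (-0.84 on 1 probe set and -0.76 on the other), and *clpp-1* was called higher (1.19, adjusted p = 0.327), where that fit called 0.362% of all genes higher and 1.14% lower. *clpp-1* had 12.41, 10.94 and 11.10 in the mutant and 10.93, 9.97 and 9.99 in the wild-type germlines on that probe set, with every mutant array above every wild-type one. Its other probe set had 9.84, 8.68 and 8.98 in the mutant and 8.71, 8.89 and 8.94 in the wild-type germlines, with overlap, and a change of 0.32 (SE 0.31) that was not called with the block either.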

How the data were processed

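RNA of embryos and dissected germlines was hybridized to Affymetrix *C. elegans* Genome arrays, 3 per genotype and tissue. The authors made the deposited log2 values with rma of the affy package, separately for each tissue, with genes assigned to probe sets from WormBase release WS190. The deposited tables also hold detection calls, and p-values and fold changes of the authors' own comparison, which were not used. Software versions of the authors are not given in the sources used here.

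Mutant and wild-type arrays were compared within each tissue by limma 3.58.1 (lmFit, eBayes) in R 4.3.3 over all 21541 probe sets, and 1 passing probe set sufficed to call its gene. The fit was tested on simulated data. After subtraction of genotype means, arrays of the same number correlated at 0.246, 0.362 and 0.276 in embryos and 0.834, 0.363 and 0.392 in germlines, so the fits were repeated with the number as a block. Germline mutant replicate 2 correlated more with wild-type replicate 3 (0.719), and mutant replicate 3 more with wild-type replicate 2 (0.767). Pairing by number is therefore uncertain for germline replicates 2 and 3, and so are the germline calls of the block fit. Named are the called genes, the *cct*, *hsp-16*, *hsp-70* and constitutive HSP genes, and per tissue and direction the 3 largest uncalled changes without overlap. The other J-domain genes named, *dnj-13* and *dnj-19* among them, and *hsp-25* and *hsp-43* were chosen after their values were seen. Alternatives were other thresholds, filters on dim or shared probe sets, averaged probe sets, an intensity trend, array weights, centering, further quantile normalization and leaving out arrays. The members, the folding list and the marker lists were chosen with earlier results of these data known. All 53 symbols matched the RefSeq table. Figures were drawn with matplotlib 3.10.9.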

Additional observations from a re-analysis of the deposited data

How the results depend on the processing

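With 4 genes called higher in *lin-54(n2990)* embryos, the count was 0 at an adjusted p of at most 0.05, 1 at a fold change of at least 2, 4 with the replicate block, and 3 to 6 when 1 array was left out. The count of genes lower in these embryos was 0, but array weights gave 2, the replicate block gave 1, and leaving out 1 array gave 0 to 2 (2 once mutant replicate 3 was omitted). For germlines of *lin-54(n3423)*, 0 genes were higher under every setting run. The count of lower genes there was 0, but 1 with the replicate block, 1 with the arrays numbered 1 as a batch, 3 with those arrays left out, and 0 to 1 when 1 array was left out (*dnj-13* without wild-type replicate 1 and *hsp-12.2* without wild-type replicate 2). The block changed no other call of the 53 genes. No called change reversed. The cause of these differences was not tested. Over all genes the block gave 677 lower calls in embryos against 298 without it, and in germlines 64 higher calls against 15 and 201 lower calls against 74. Germline standard errors had a median of 0.42 over the chaperone probe sets, against 0.12 in embryos, which limits what the germline arrays can show.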

Other observations

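The arrays on which the inducible genes were high in embryos were also the high ones for F44E5.4, an inducible HSP70 gene outside the 53, which was chosen after its values were seen. On 1 of its probe sets it had 14, 12.36 and 13.97 in *lin-54(n2990)* embryos and 14.08, 13.02 and 13.12 in wild-type embryos, a change of 0.04 (SE 0.52). In germlines the same probe set was detected on none of the arrays, at 4.20 to 4.54 in *lin-54(n3423)* germlines and 4.02 to 4.64 in wild-type germlines. In embryos *xbp-1* had 10.22, 9.50 and 10.30 in the mutant and 10.81, 10.64 and 10.43 in the wild-type on 1 of its probe sets, without overlap, a change of -0.62 (SE 0.23) that was not called.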
